A study of Mus musculus with 22 samples.

Results

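The miR-99/100 and miR-125 families were followed through 5 mature miRNAs, mmu-miR-99a-5p, mmu-miR-99b-5p, mmu-miR-100-5p, mmu-miR-125a-5p and mmu-miR-125b-5p, written below without the prefix for mouse. They were taken by name from the 1247 mouse miRNAs on a single-colour Agilent microRNA array, and all 5 names were found. The families were chosen by values of these same arrays, among them a low miR-125a-5p at 48 h on arrays listed as 50 µM in the deposited value table. Comparisons that contain the treated arrays at 48 h are therefore given as a description, with no p-value. Tests are given for 24 h and for culture time in solvent. The 6 solvent arrays of 48 h were part of the contrast in which miR-125a-5p stood out, so its difference over solvent time is not independent of that choice. The same holds for miR-99b-5p, which ran with miR-125a-5p over the arrays (Pearson's r = 0.89). Both differences over solvent time are given with no p-value.

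The cells were primary hepatocytes of C57Bl6 mice, cultured in serum-containing medium and exposed to cyclosporin A (CsA) at 10 or 50 µM or to 0.5% DMSO, the solvent that all cells received. CsA is a calcineurin inhibitor used as an immunosuppressant and known for cholestatic liver toxicity. At 24 h there were 3 arrays of 10 µM CsA, 2 of 50 µM CsA and 5 of DMSO. At 48 h there were 3, 3 and 6. The design names 24 arrays, of which 22 were analysed here. The labels call the replicates biological and give each an Ex. number from 1 to 3. They do not say how many animals gave the cells, so p-values measure the spread between these cultures. The age and sex of the mice are not given in the sources used here, and the treatment text names HepG2, a human hepatoma line, where every other field names mouse hepatocytes.

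The doses of single arrays are in doubt. The deposited value table holds the same 22 arrays, but 16 of its columns hold an array filed under another sample name. Of these, 8 are CsA arrays of the other dose and 8 are DMSO arrays of the same time. Time, treatment and Ex. number were the same under both namings. Pooling the doses into CsA against DMSO therefore gives the same result whichever naming is right, and leads below. Values by dose are given under the names of the array files and under those of the value table.

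A miRNA binds its targets mainly through its seed, bases 2 to 8 from its 5′ end, so miRNAs of one seed share many predicted targets. The miR-125 family descends from the same ancestor as lin-4, the first miRNA described in worms, and it represses Lin28 and the p53 message. The miR-99/100 family is known to repress mTOR and the IGF1 receptor. In mammals the genes of both families lie with let-7 genes in short clusters, and members of one cluster are thought to be cut from shared primary transcripts.

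The mature sequences from RefSeq (GRCm38.p6) are shown because only a few letters separate members that the array lists as separate entries. The seed is in capitals.

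mmu-miR-99a-5p: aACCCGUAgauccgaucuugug
mmu-miR-99b-5p: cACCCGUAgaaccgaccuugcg
mmu-miR-100-5p: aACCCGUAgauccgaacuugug
mmu-miR-125a-5p: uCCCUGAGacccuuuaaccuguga
mmu-miR-125b-5p: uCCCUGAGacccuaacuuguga

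The first 3 shared the seed ACCCGUA, which no other of the 1679 mature sequences in the table carried. The other two shared CCCUGAG with 3 further entries, miR-351-5p, miR-6367 and miR-6394. With positions counted from the 5′ end, miR-99a-5p and miR-100-5p differed by U16A alone. miR-99a-5p and miR-99b-5p differed by A1C, U11A, U16C and U21C. miR-125a-5p, of 24 bases, and miR-125b-5p, of 22 bases, were identical over their first 13. Whether the probes of such close members bind each other's RNA was not tested.

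All copies in the table lay on the plus strand of 3 clusters. On chromosome 9, miR-100-5p (chr9:41531437-41531458), a let-7a gene and a copy of miR-125b-5p (chr9:41581940-41581961) spanned 50525 bases, within the long noncoding gene Mir100hg. On chromosome 16, miR-99a-5p (chr16:77598940-77598961), a let-7c gene and the other copy of miR-125b-5p (chr16:77646279-77646300) spanned 47361 bases. The tightest cluster was on chromosome 17, where miR-99b-5p (chr17:17830194-17830215), let-7e and miR-125a-5p (chr17:17830817-17830840) fell within 647 bases, inside the span of the protein-coding gene Spaca6.

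Levels are log2 of a probe's mean signal after scaling, for which each array was set to the 75th percentile of the 281 probes that were well above background on every array. Values under a floor of -4.41 were raised to it. The floor was the median over arrays of each array's dimmest signal that counted as measured. That signal ranged from -5.54 to -3.26. A miRNA was above background on an array where at least 0.5 of its spots were. Each member had 2 probes of 20 spots, and the brighter one was used. Because probes differ in brightness, the levels of different members are not compared with each other.

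miR-99a-5p and miR-125b-5p were above background on 22 of 22 arrays. miR-125a-5p was above it on 21, the exception being replicate 1 of 50 µM CsA at 48 h, a name on which both sources agree. miR-99b-5p was above it on 10 arrays, 5 of the 6 DMSO arrays at 48 h, 3 of 6 CsA arrays at 48 h, 2 of 5 CsA arrays at 24 h and 0 of 5 DMSO arrays at 24 h. miR-100-5p was above it on 0 arrays: none of its spots passed, and its scaled signal lay between -0.00799 and 0.00355, so it was not well above background in any group. It was not tested. Testing required 3 arrays above background, which 4 of the 5 members and 289 of all 1247 miRNAs met.

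The level of miR-125b-5p ranged from -1.48 to -0.42 over the arrays, with a median of -0.82, and that of miR-99a-5p from -2.99 to -2.04, with a median of -2.51. These 2 were steady, with standard deviations over the 22 arrays of 0.26 and 0.28, at percentiles 19.0 and 24.2 of the tested miRNAs. miR-125a-5p ranged from -4.29 to -1.91, with a median of -3.42 and an SD of 0.57, at percentile 76.5. miR-99b-5p ranged from the floor, where 10 arrays lay, to -2.80. The 2 probes of a member correlated over the arrays at r = 0.95 for miR-125b-5p, 0.91 for miR-125a-5p, 0.90 for miR-99a-5p and 0.77 for miR-99b-5p.

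**Figure D1:**
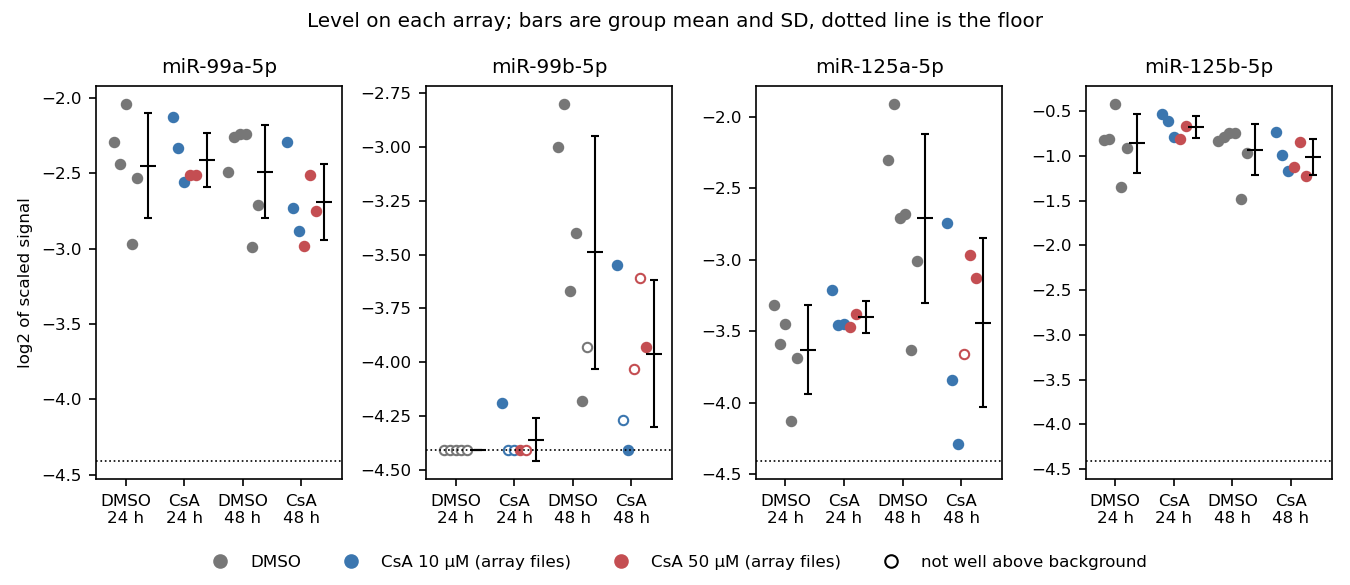
Level of the 4 tested members on each array (y axis, log2 of scaled signal, with a scale of its own in each panel) in DMSO and CsA at 24 and 48 h. Points are arrays, coloured by dose as the array files name it, open where not well above background; the bars beside them are the group mean and SD, and the dotted line is the floor of -4.41. miR-99a-5p and miR-125b-5p overlap in all 4 groups, while miR-99b-5p leaves the floor mainly in DMSO at 48 h.

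Over culture time in solvent, the 2 members whose levels differed most share a cluster and not a seed. Between 24 and 48 h in DMSO the fitted level of the chromosome 17 members was higher at 48 h, by 0.91 ± 0.20 (log2, SE) for miR-99b-5p and 0.93 ± 0.27 for miR-125a-5p, with 6 arrays against 5. That of miR-99a-5p and miR-125b-5p differed by -0.04 ± 0.17 and -0.07 ± 0.15. At a threshold of 0.05, limma's moderated test with Benjamini-Hochberg adjustment called 0 of the 289 miRNAs (0%). At an unadjusted p under 0.05 there were 38 of the 289.

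miR-99b-5p lay at the floor on all 5 DMSO arrays at 24 h. At 48 h it stood at -3.00 and -2.80 in Ex.1 (replicates 1 and 2), at -3.67 and -3.40 in Ex.2 (replicates 3 and 4) and at -4.18 and -3.93 in Ex.3 (replicates 5 and 6), the last of which was not above background. The groups did not overlap, which held for 1 of the 289 miRNAs (0.346%). The 48 h mean was -3.49 ± 0.54 (SD, n = 6). It was 2.15-fold higher than the lowest measured signal of the 24 h arrays, or than the member's own signal where that was higher. This is no strict minimum, since replicate 6 at 48 h was not above background. On floored values the fitted difference was 0.91 (log2), and 0.58 as the mean of all probes. As stated at the start, no p-value is given for this difference.

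miR-125a-5p stood in DMSO at 24 h at -3.32 in Ex.1, at -3.59 and -3.45 in Ex.2 and at -4.13 and -3.69 in Ex.3. At 48 h it stood at -2.30 and -1.91 in Ex.1, at -2.71 and -2.68 in Ex.2 and at -3.63 and -3.01 in Ex.3. The groups overlapped only through replicate 5 at 48 h, which was lower than 3 arrays of 24 h. The means were -2.71 ± 0.59 (SD, n = 6) and -3.63 ± 0.31 (SD, n = 5).

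Arrays of one Ex. number ran together in these groups, so the fit was repeated with the Ex. number as a block. In both fits arrays of one Ex. number and time counted as separate. The SE is therefore not the spread of the difference over the Ex. numbers. With the block the difference was 0.86 ± 0.17 for miR-99b-5p and 0.86 ± 0.23 for miR-125a-5p. limma called 10 of 289 miRNAs in that fit (3.46%). Nothing is read from this count for the members. Within Ex.1, Ex.2 and Ex.3 the 48 h arrays were higher by 1.51, 0.87 and 0.35 for miR-99b-5p, and by 1.21, 0.82 and 0.59 for miR-125a-5p. Within the 3 slides of the array the differences were 0.48, 1.51 and 0.66 for miR-99b-5p and 0.63, 1.68 and 0.32 for miR-125a-5p, each from 3 or 4 arrays. Without DMSO replicate 5 at 48 h and with no block, the difference was 1.05 ± 0.18 for miR-99b-5p and 1.11 ± 0.25 for miR-125a-5p. With single arrays left out it ranged from 0.77 to 1.05 for miR-99b-5p and from 0.77 to 1.11 for miR-125a-5p. Scaled over all probes, the differences of these members were 1.03 and 1.00. They were 0.85 and 0.84 by quantile normalisation, 0.33 and 0.34 with normexp, and 2.31 and 0.96 in the authors' value table.

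**Figure D2:**
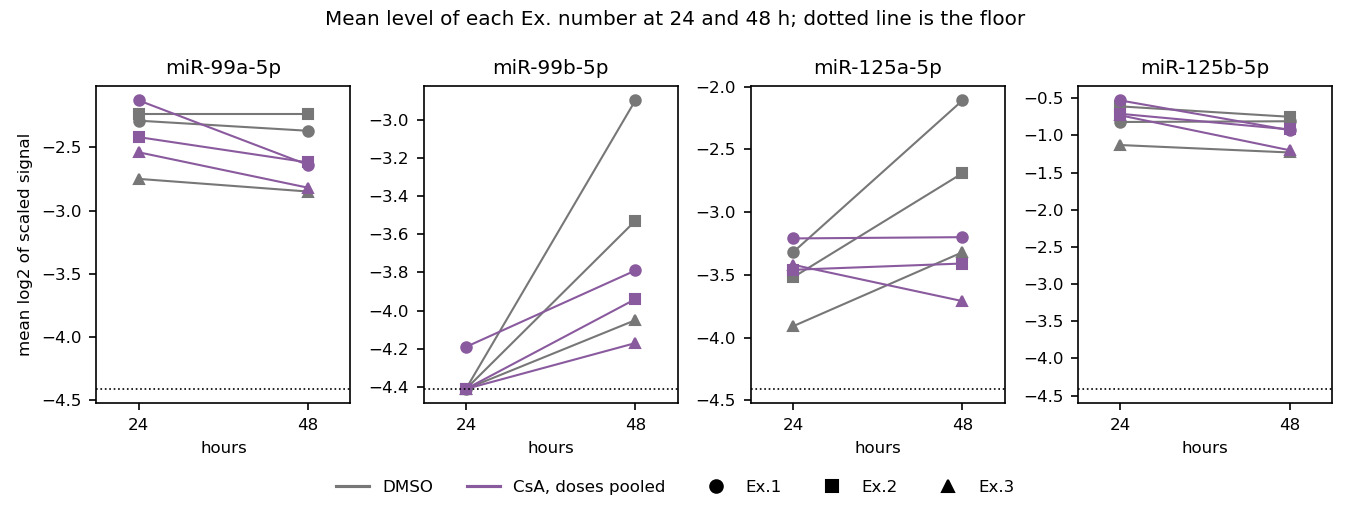
Mean level of each Ex. number (y axis, log2 of scaled signal, with a scale of its own in each panel) at 24 and 48 h, in DMSO and in CsA with doses pooled; each point is the mean of 1 or 2 arrays and the dotted line is the floor of -4.41. In DMSO the lines of miR-99b-5p and miR-125a-5p go up in all 3 Ex. numbers, by 0.35 to 1.51.

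let-7e-5p, which lies between these members on chromosome 17, was above background on all 22 arrays. Its level in DMSO ranged from -3.40 to -2.58 at 24 h and from -2.62 to -1.30 at 48 h. The difference was 0.81 ± 0.22, and 0.75 ± 0.18 with the Ex. number as a block. It is given with no p-value, since let-7e-5p ran with miR-125a-5p over the arrays (r = 0.89). let-7c-5p and let-7a-5p, made from the other clusters and from further loci, differed by 0.02 ± 0.14 and 0.09 ± 0.18 (limma, adjusted p = 0.989 for both). let-7 members share nearly all their letters, and what each probe binds was not tested.

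At 24 h CsA and DMSO were not separated for any member. With doses pooled, 5 arrays a group, the difference was 0.24 ± 0.28 for miR-125a-5p, 0.18 ± 0.16 for miR-125b-5p, 0.05 ± 0.17 for miR-99a-5p and 0.04 ± 0.21 for miR-99b-5p. limma's adjusted p was 0.941 for miR-125b-5p and 1 for the rest. It called 0 of the 289 miRNAs (0%), with 19 at an unadjusted p under 0.05 and 0 of the 4 members among them.

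miR-125b-5p stood at -0.53, -0.61 and -0.79 on the 24 h arrays filed as 10 µM and at -0.81 and -0.67 on those filed as 50 µM, within the DMSO range of -1.35 to -0.42. miR-99a-5p stood at -2.13, -2.33 and -2.56 at 10 µM and at -2.51 on both arrays of 50 µM, within the DMSO range of -2.97 to -2.04. miR-125a-5p stood at -3.21, -3.46 and -3.45 at 10 µM and at -3.47 and -3.38 at 50 µM. That member's 5 treated arrays lay closer together than the DMSO arrays, with an SD of 0.11 against 0.31. miR-99b-5p was above the floor on 1 of the 10 arrays, at -4.19 in replicate 1 of 10 µM.

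The doses taken apart at 24 h gave fitted differences between -0.17 and 0.26 under the file names and between -0.10 and 0.28 under the value-table names. These cover 10 µM and 50 µM against DMSO and 50 against 10 µM for the 4 tested members, with a lowest adjusted p (limma) of 0.867 and 0.790. Under the value-table names limma called 11 of 289 miRNAs for 50 µM against DMSO (3.81%), none of them a member, and 41 at an unadjusted p under 0.05.

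At 48 h the chromosome 17 members were lower under CsA than in DMSO, and these values are a description. With doses pooled, 6 arrays a group, the difference was -0.73 ± 0.26 for miR-125a-5p, -0.47 ± 0.19 for miR-99b-5p, -0.20 ± 0.16 for miR-99a-5p and -0.09 ± 0.14 for miR-125b-5p. let-7e-5p, between these 2 on chromosome 17, differed by -0.27 ± 0.21, and by -0.09 ± 0.21 with the slide as a block. Within Ex.1, Ex.2 and Ex.3 the difference of let-7e-5p was -0.57, -0.35 and 0.10. The median over all 289 miRNAs was 0.10. Over all miRNAs limma called 3 of the 289 (1.04%), and 24 (8.30%) with the Ex. number as a block. Nothing is read from these counts for the members.

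Under CsA at 48 h miR-125a-5p stood at -2.74, -3.84 and -4.29 on the arrays filed as 10 µM and at -3.66, -2.97 and -3.13 on those filed as 50 µM, for Ex.1, Ex.2 and Ex.3. The treated and DMSO arrays overlapped, and in each Ex. number 1 treated array was higher than the other by 0.87 to 1.16. The lower array of each pair is listed as 50 µM in the value table. Within Ex.1, Ex.2 and Ex.3 the pooled CsA mean lay 1.10, 0.71 and 0.39 below the DMSO mean. Slides gave other values: -0.68 on slide 1 (4 CsA arrays, 1 DMSO array), 0.07 on slide 3 (2 and 3), and none on slide 2, which held no CsA array of 48 h. With the slide as a block the difference was -0.55 ± 0.28.

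miR-99b-5p stood at -3.55, -4.27 and the floor on the 48 h arrays filed as 10 µM and at -4.03, -3.61 and -3.93 on those filed as 50 µM. It was above background on replicates 1 and 3 of the first dose, on the latter with a level at the floor, and on replicate 3 of the other. Within Ex.1, Ex.2 and Ex.3 the difference from DMSO was -0.89, -0.40 and -0.11. On slides 1 and 3 it was -0.15 and 0.01, and with the slide as a block -0.32 ± 0.20.

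The 2 steady members differed less. miR-99a-5p ranged from -2.98 to -2.29 under CsA at 48 h and from -2.99 to -2.24 in DMSO, and miR-125b-5p from -1.22 to -0.73 and from -1.48 to -0.74. Treated and solvent arrays overlapped for each of them.

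By dose, the namings gave opposite orders at 48 h. Under the file names miR-125a-5p was lower than in DMSO by 0.92 ± 0.33 at 10 µM and by 0.55 ± 0.33 at 50 µM. Under the value-table names it was lower by 0.24 ± 0.27 at 10 µM and by 1.23 ± 0.27 at 50 µM. The 50 µM arrays then stood at -3.66, -3.84 and -4.29, all below the DMSO range of -3.63 to -1.91. Such a lack of overlap held for 29 of 289 miRNAs (10%). The array at -3.66, nearest that range, was not above background for this member. The dimmest measured signal of that array was -3.26, so nothing is read from the lack of overlap. For miR-99b-5p the differences were -0.58 ± 0.24 and -0.36 ± 0.24 under the file names and -0.20 ± 0.22 and -0.74 ± 0.22 under the value-table names.

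Between the doses at 48 h, 50 against 10 µM, miR-125a-5p differed by 0.37 ± 0.38 under the file names and by -0.98 ± 0.31 under the value-table names, and miR-99b-5p by 0.22 ± 0.28 and -0.54 ± 0.25. miR-99a-5p and miR-125b-5p stayed between -0.38 and 0.00 in all these comparisons. Under the file names limma called 18 of 289 miRNAs at 10 µM (6.23%), 1 at 50 µM (0.346%) and 0 between the doses (0%, with 17 at an unadjusted p under 0.05). Under the value-table names it called 3 at 10 µM (1.04%), 109 at 50 µM (37.7%) and 82 between the doses (28.4%). Nothing is read from these counts for the members.

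**Figure D3:**
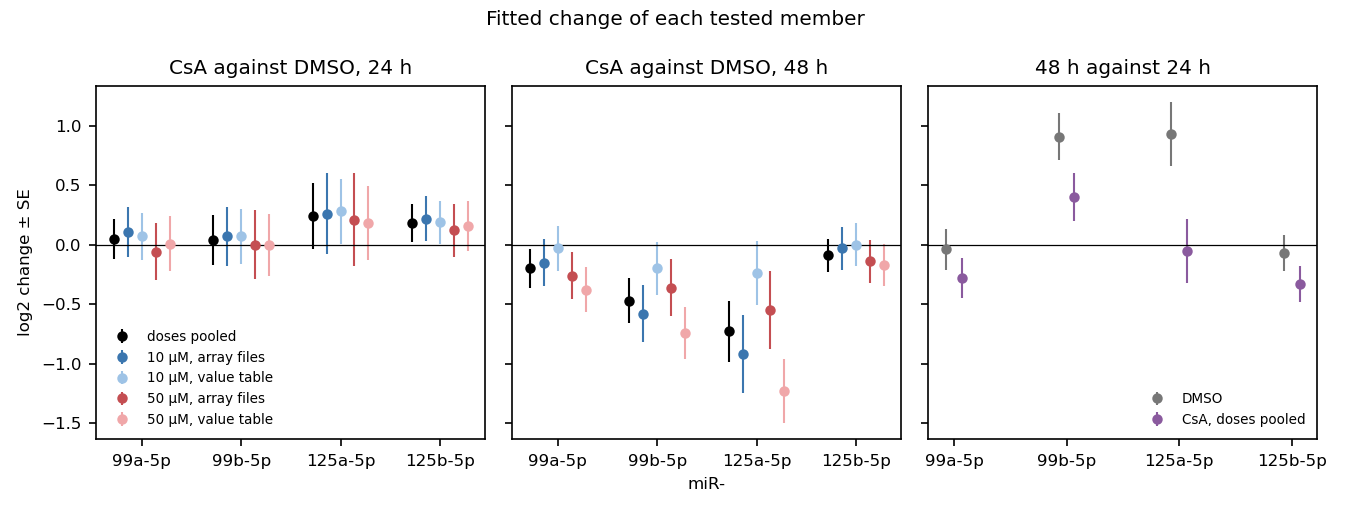
Fitted log2 change of the 4 tested members (y axis, ± SE) for CsA against DMSO at 24 h, the same at 48 h, and 48 against 24 h. Colours mark pooled doses and each dose under the names of the array files or of the value table. For miR-125a-5p at 48 h the value-table names place the lowest value, -1.23, at 50 µM, while the file names place -0.92 at 10 µM.

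Set side by side, the time course under CsA was smaller for the chromosome 17 members than in solvent. From 24 to 48 h under CsA, 6 arrays against 5, miR-99b-5p was higher by 0.40 ± 0.20 and miR-125a-5p differed by -0.05 ± 0.27, against 0.91 and 0.93 in DMSO. miR-99a-5p and miR-125b-5p differed by -0.28 ± 0.17 and -0.33 ± 0.15. Over all miRNAs limma called 1 of 289 here (0.346%). The effect of CsA at 48 h minus that at 24 h was -0.97 ± 0.38 for miR-125a-5p, -0.51 ± 0.28 for miR-99b-5p, -0.25 ± 0.24 for miR-99a-5p and -0.26 ± 0.21 for miR-125b-5p. Over all miRNAs limma called 0 of 289 for this difference (0%), with 8 at an unadjusted p under 0.05. Slide 2 held 3 of the 5 CsA arrays of 24 h and none of 48 h. With the slide as a block the CsA time difference was 0.63 ± 0.21 for miR-99b-5p and 0.17 ± 0.30 for miR-125a-5p. In DMSO it was then 0.91 ± 0.19 and 0.88 ± 0.28. The effect at 48 h minus that at 24 h was then -0.28 ± 0.29 for miR-99b-5p and -0.70 ± 0.41 for miR-125a-5p.

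Across all 22 arrays members of one cluster went together more closely than members of one seed. As a description over arrays that share groups, slides and scaling, Pearson's r was 0.89 (Spearman's rho 0.76) for miR-99b-5p with miR-125a-5p and 0.91 (rho 0.85) for miR-99a-5p with miR-125b-5p. Seed partners gave 0.24 (rho 0.18) for miR-99a-5p with miR-99b-5p and 0.40 (rho 0.45) for miR-125a-5p with miR-125b-5p. The 10 arrays of miR-99b-5p at the floor enter these values. On deviations from the group means the 4 pairs gave 0.90, 0.93, 0.58 and 0.69. Pairs that share neither cluster nor seed lay on both sides of the seed partners. miR-99a-5p with miR-125a-5p gave 0.55 (rho 0.62) and miR-99b-5p with miR-125b-5p gave 0.09 (rho -0.04). On deviations these pairs gave 0.75 and 0.53. An r this high was not particular to cluster partners, since miR-365-3p gave 0.92 with miR-99a-5p and miR-24-3p gave 0.91 with miR-125a-5p. miR-125b-5p also has a copy in the chromosome 9 cluster, so its level is not that of the chromosome 16 cluster alone.

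**Figure D4:**
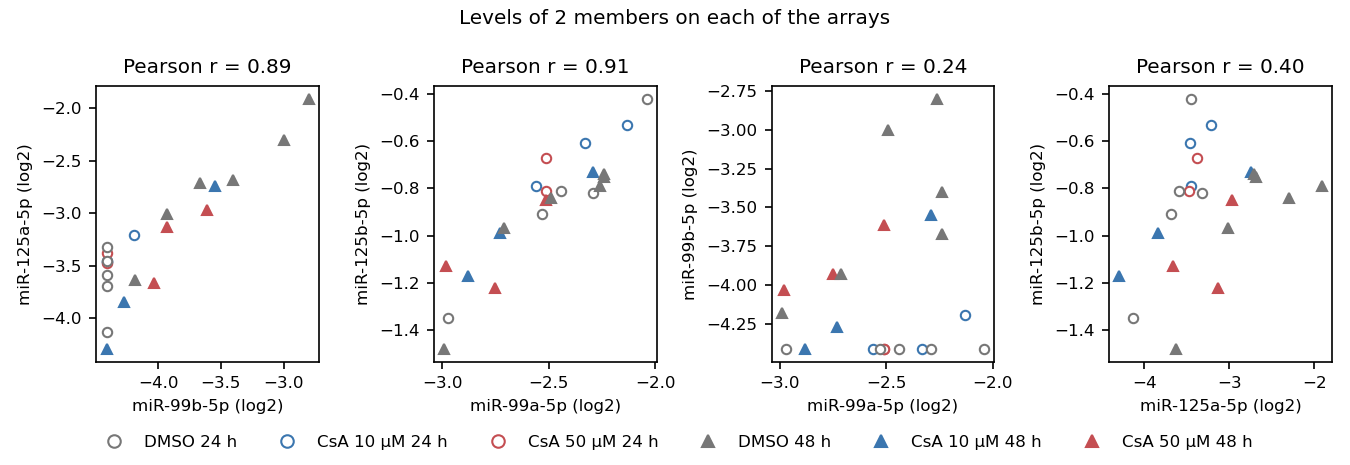
Levels of a pair of members on each of the 22 arrays (both axes, log2 of scaled signal), with open circles for 24 h and triangles for 48 h, coloured by treatment as the array files name it. The left panels show the cluster partners (r = 0.89 and 0.91) and the right panels the seed partners (r = 0.24 and 0.40); the arrays of miR-99b-5p at the floor form a line at -4.41.

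Likeness to other miRNAs was ranked by Pearson's r over the 22 arrays among 154 miRNAs above background on all of them. miR-99a-5p was most like let-7c-5p (0.94), its neighbour on chromosome 16, then miR-365-3p (0.92) and let-7a-5p (0.90). miR-125a-5p was most like miR-24-3p (0.91), miR-93-5p (0.91) and let-7e-5p (0.89), its neighbour on chromosome 17. miR-125b-5p was most like miR-30d-5p (0.84), let-7c-5p (0.81) and miR-16-5p (0.80). miR-99b-5p, above background on 10 arrays, was not ranked, but gave 0.88 with let-7e-5p.

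The opposite arms, cut from the same hairpins, did not follow their 5p partners. Of 6 such arms on the array, miR-125a-3p was above background on 22 arrays and miR-99b-3p on 19, and the other 4 on none. Over the arrays miR-125a-3p gave r = -0.48 with miR-125a-5p and miR-99b-3p gave -0.48 with miR-99b-5p. A negative r was not particular to these partners. With the other tested members miR-125a-3p gave -0.66 to -0.30 and miR-99b-3p gave -0.63 to -0.43. From 24 to 48 h in DMSO they differed by 0.15 ± 0.21 (limma, adjusted p = 0.933) and -0.03 ± 0.21 (0.989). Under CsA at 48 h, doses pooled and as a description, they stood 0.30 ± 0.20 and 0.44 ± 0.20 above DMSO, where the 5p arms stood below it. By dose under the file names miR-125a-3p differed from DMSO by 0.33 ± 0.25 at 10 µM and 0.27 ± 0.25 at 50 µM, and miR-99b-3p by 0.54 ± 0.25 and 0.33 ± 0.25. Under the value-table names the differences were 0.03 ± 0.21 and 0.57 ± 0.21 for miR-125a-3p, and 0.05 ± 0.19 and 0.82 ± 0.19 for miR-99b-3p.

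The 3 other miRNAs of like seed that were looked at were not well above background: miR-351-5p, which has the miR-125 seed, and miR-10a-5p and miR-10b-5p, whose seed ACCCUGU is close to that of miR-99/100, were above background on 0 arrays.

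The cultures carried the markers of hepatocytes. All 6 hepatocyte miRNAs listed, miR-122-5p among them, were above background on 22 arrays, and their summed scaled signal ranged from 49.6 to 68.7 at 24 h and from 44.6 to 58.8 at 48 h. Of the markers of other liver and blood cells, miR-126-3p (endothelium) was above background on 20 arrays and miR-145a-5p (stellate and mesenchymal cells) on 12, as 1 of 2 and 1 of 5 such markers on the array. None of 4 leukocyte and macrophage, 5 biliary or other epithelial and 2 erythroid markers was above it. Over DMSO time, where miR-99b-5p and miR-125a-5p were higher at 48 h, miR-126-3p was lower by 0.64 ± 0.26 (limma, adjusted p = 0.307). miR-145a-5p differed by 0.07 ± 0.27 (0.989). The DMSO mean of each of the 6 hepatocyte miRNAs was also lower at 48 h than at 24 h. For miR-122-5p it was 5.69 at 24 h and 5.42 at 48 h, and for miR-101b-3p -1.93 and -2.43. Whether the mix of cells changed was not tested. In bulk RNA, fewer cells of a type and less RNA per cell cannot be told apart. The scaling percentile ranged from 188 to 605 and the number of detected miRNAs from 201 to 400 over the arrays.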

How the data were processed

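Feature Extraction 10.7.3.1 wrote the deposited spot files, per the file headers, with processed signal intensity that was already background-corrected. The authors' value table holds log2 values, for which the submitters' processing notes name R 2.15.2. Their scaling is not stated in the labels or the file. They were used as an alternative and to match names, by a rank correlation of 1 with 1 array each. Array limits here are the number of arrays and brightness over background.

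From the spot files, outlier spots (2.19% to 10.3% an array) were dropped, spots averaged, and each array divided by its 75th percentile. The brightest probe stood for a miRNA. limma 3.58.1 in R 4.3.3 was fitted to all 289 miRNAs over all groups, without a replicate block, with Benjamini-Hochberg adjusted p-values. It was tested on simulated data.

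Same-numbered CsA and DMSO arrays at 48 h deviated together (correlations 0.71, 0.39 and 0.77 for Ex.1 to Ex.3). The values were lower for DMSO arrays of 24 and 48 h (0.24, 0.27 and 0.40). They were about as low for CsA and DMSO at 24 h (0.39, 0.06 and 0.38).

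The members and marker lists were chosen with earlier results of these data known. All members are named; others are the 3 most alike by r, cluster neighbours and opposite arms.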

Additional observations from a re-analysis of the deposited data

Results flagged for a closer look

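The level of miR-125b-5p in DMSO replicate 5 at 48 h was -1.48, apart from the other 5 arrays of its group, the nearest of which stood at -0.97. Its gap to the nearest array was 0.688 of the group's range, above Dixon's 95% critical value of 0.625 for 6 arrays. Chance flags about 1 in 20 groups, and 7 group ranges were looked at. The same array was the lowest of its group for miR-99a-5p (-2.99), miR-99b-5p (-4.18) and miR-125a-5p (-3.63), where it did not pass that criterion.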

How the results depend on the processing

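Counts here are of the 4 tested members called by limma, 0 in each comparison under the file names unless given. Those with the 48 h arrays of CsA rest on values by which the members were chosen, and those over DMSO time are not independent of that choice. The counts therefore describe the settings and support nothing about the members. With the Ex. number as a replicate block, 2 members were called over DMSO time, beside 10 of all 289 miRNAs (3.46%). For CsA against DMSO at 48 h it was 1 with doses pooled and 1 at 10 µM, beside 24 (8.30%) and 29 of the 289. The block called no member at 24 h, where the numbers paired the samples about as weakly as over DMSO time. It moved the count over all miRNAs there from 0 to 1. Leaving out 1 array at a time gave 0 to 2 members over DMSO time, for pooled CsA at 48 h and for 10 µM at 48 h. The 2 came without DMSO replicate 5 at 48 h, and for 10 µM also without its replicate 1. Under the value-table names 2 members were called for 50 µM against DMSO at 48 h (1 to 3 with single arrays left out) and 1 between the doses (0 to 1, and 2 with the block). The alternatives under the value-table names and the CsA time comparison were chosen after seeing the data.

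The median of all miRNAs in pooled CsA against DMSO at 48 h was 0.10, and moved to -0.16 when arrays were scaled over all probes and to 0.00 by quantile normalisation. There miR-125a-5p stood at -1.06 and -0.91 and miR-99b-5p at -0.74 and -0.53. Over all miRNAs that comparison called 3 (1 higher, 2 lower), but 7 (4 and 3) by quantile normalisation, 6 (0 and 6) with all probes in the scaling, 5 (1 and 4) with normexp, 10 (1 and 9) in the authors' value table, 1 with the slide as a block and 1 with no filter on dim miRNAs. For 10 µM at 48 h, 18 became 0 with all probes in the scaling, 2 by quantile normalisation and 2 with normexp.

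Several small differences changed sign. miR-99a-5p at 24 h became -0.03 by quantile normalisation, -0.02 with normexp, -0.08 in the authors' value table, and -0.08 to 0.15 with single arrays left out. miR-99b-5p at 24 h became -0.04 with the slide as a block. Over DMSO time miR-99a-5p became 0.03 scaled over all probes and 0.02 as the mean of all probes, and -0.17 to 0.07 with single arrays left out, as miR-125b-5p did from -0.19 to 0.05. Over CsA time miR-125a-5p became 0.04 as the mean of all probes, 0.17 with the slide as a block and -0.19 to 0.12 with single arrays left out, miR-99b-5p -0.54 in the authors' value table and let-7e-5p -0.08 scaled over all probes. Between the doses at 48 h the value-table names turned miR-125a-5p to -0.98 and miR-99b-5p to -0.54, and the authors' values turned miR-99b-5p to -0.04. Of 454 further values by dose, for all 4 members at 24 h and the 2 steady ones at 48 h, 54 changed sign and 2 passed the threshold. The cause was not tested. The dim miR-99b-5p, near the floor, is the least well measured of the 4.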
